A study of Canis lupus familiaris with 58 samples.

Results

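The comparison concerned the lymph node biopsies of dogs with diffuse large B-cell lymphoma (DLBCL), divided by how strongly they expressed COL1A1, the gene for the alpha-1 chain of type I collagen. The 32 DLBCL nodes were ranked by their log2 COL1A1 value, and the 10 highest (COL1A1-high) were set against the 10 lowest (COL1A1-low), so 20 of the 58 dogs of the study entered the comparison and 12 DLBCL nodes lay between the groups. All 58 were client-owned pets sampled before any treatment, with 1 RNA sample and 1 Affymetrix canine array each. The other dogs contributed 7 lymph nodes diagnosed as MZL (marginal zone lymphoma) and 19 fine needle aspirates whose pathology diagnosis is labelled unknown. The labels also gave the status of each tumour's immunoglobulin heavy chain variable (IGHV) genes, as static, ongoing or ND, together with times and indicators of progression-free survival (PFS) and overall survival (OS). They gave no breed, age, sex or therapy, so the COL1A1-high and COL1A1-low groups are not known to be alike in these.

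Type I collagen is the main fibrous protein of connective tissue and is made chiefly by fibroblasts. In a lymph node the matrix is carried by fibroblastic reticular cells, which wrap collagen fibres in conduits and release the chemokines that draw lymphocytes and dendritic cells into the T-cell zone. Blood and lymph vessels, their pericytes and the capsule add further collagen, and macrophages lie along these fibres. In human DLBCL, gene expression signatures of matrix deposition and of vessel density have been tied to better and to worse outcome after chemotherapy, while a diffuse tumour can replace the normal stromal scaffold.

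The nodes were chosen by their COL1A1 values, which are therefore given as a description. The COL1A1-high nodes lay between 7.72 and 10.56 on the log2 scale with a median of 8.45 (mean 8.56 ± 0.88, SD, n = 10), against 4.62 to 6.47 with a median of 5.64 in COL1A1-low nodes (mean 5.62 ± 0.57, SD, n = 10). Both borders were narrow. The lowest COL1A1-high node, dog 50, stood at 7.72 and the node just outside the group, dog 17, at 7.70. The highest COL1A1-low node, dog 56, stood at 6.47 and the node just outside it, dog 54, also at 6.47. The DLBCL nodes formed a gradient without a gap at either border, and a single node, dog 19 at 10.56, stood well above the rest, as the plot of ranked COL1A1 values shows. The array carries 3 COL1A1 probe sets, and a ranking by their mean kept 9 of the 10 nodes in each group. That mean includes the probe set used for the ranking, so the overlap is no independent check. In each of the other probe sets the groups overlapped. COL1A1-high nodes lay at 5.82 to 6.31 against 5.37 to 5.94 in COL1A1-low nodes in 1 of them. In the last they lay at 5.27 to 8.39 against 4.88 to 5.46 in COL1A1-low nodes.

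**Figure D1:**
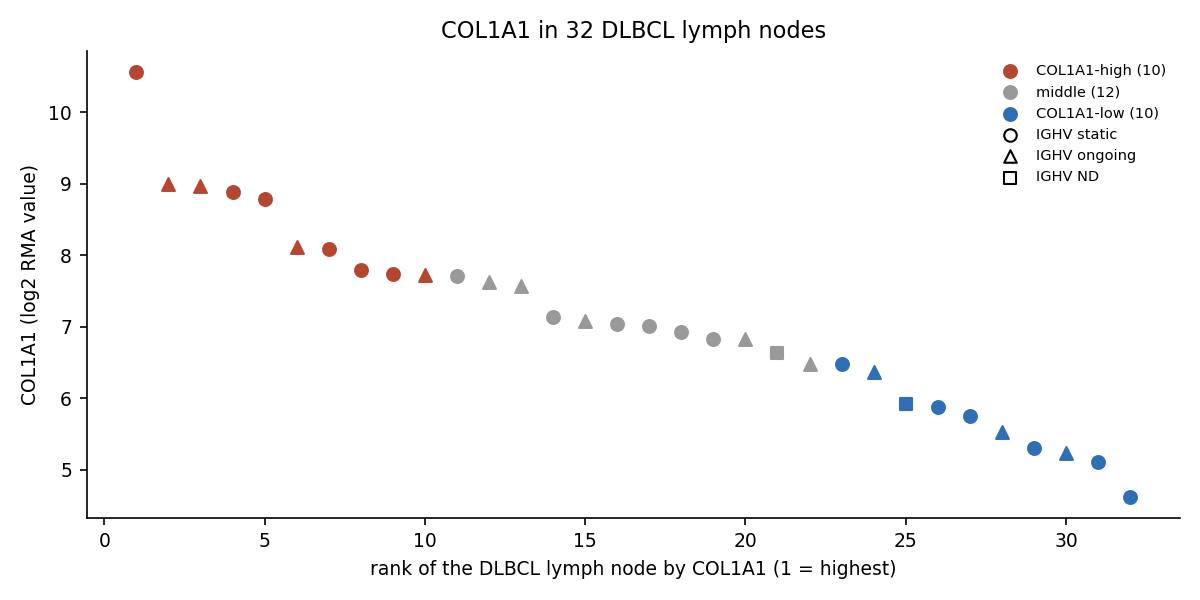
Log2 COL1A1 value of each of the 32 DLBCL lymph nodes against its rank, 1 point per dog. Colour marks the COL1A1-high (10), middle (12) and COL1A1-low (10) nodes and the symbol marks IGHV status; static and ongoing tumours are found along the whole ranking.

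Array medians ran from 7.12 to 7.20 in COL1A1-high and from 7.11 to 7.17 in COL1A1-low nodes. The deposited values were already normalized between arrays, so these alike medians do not tell whether the samples were alike in RNA amount or quality. The difference between the 3' and 5' probe sets of control transcripts, which grows as RNA degrades, ran from -0.14 to 2.65 with a median of 0.17 in COL1A1-high nodes, against -0.17 to 0.28 with a median of -0.06 in COL1A1-low nodes. The value of 2.65 belonged to dog 41, and the next highest of the group was 0.36. Because these are bulk samples, fewer cells of a type and less RNA per cell cannot be told apart in any result that follows.

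Over 15114 genes other than COL1A1, 8 rose in COL1A1-high nodes (0.0529% of genes tested) and 1 fell (0.00662%) at an adjusted p under 0.05 (limma, Benjamini-Hochberg over all genes). The 8 genes were COL1A2, CCL19, CCL21, C3, C1R, TIMP1, IGFBP4 and TFPI2, and the gene that fell was XPR1. At an unadjusted p under 0.05, 1164 genes were higher (7.7%) and 882 lower (5.84%). The median difference of all genes was 0.03, and 60.1% of them were higher by any amount. The counts of higher genes in the lists below, and those at an unadjusted p under 0.05, are to be read against these shares. The count of called genes depended strongly on single dogs. It was 73 higher and 48 lower without dog 50, the COL1A1-high node nearest the border. It was 5 higher without dog 48, 4 without dog 53, 7 or 26, 3 without dog 22, 44 or 14, and 2 without dog 18, 55, 10, 21, 6 or 8, with none lower in any of these. All 9 genes kept the sign of their difference whichever dog was left out. With the 3' minus 5' difference as a covariate 2 genes were higher and 0 lower (limma). Without dog 41, the only one of the 20 nodes over 1 in that difference, 10 were higher and 1 lower, and 8 of the 9 called genes were kept.

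Among collagens, COL1A2, which encodes the partner chain of the same collagen I fibre, rose 3.32-fold. It lay between 7.90 and 10.51 with a median of 8.82 in COL1A1-high nodes, against 6.62 to 7.75 with a median of 7.22 in COL1A1-low nodes. The log2 difference was 1.73 ± 0.26 (SE) with an adjusted p of 0.0110 (limma), and no COL1A1-low node reached any COL1A1-high node. All 4 COL1A2 probe sets were higher, by 0.31 to 1.73. Such a separation was seen in 3 of the 15114 genes (0.0198%): COL1A2, CCL19 and C1S. COL3A1, the fibrillar collagen of reticular fibres, ran from 7.18 to 7.67 in COL1A1-high and from 6.89 to 7.29 in COL1A1-low nodes, a log2 difference of 0.37 ± 0.07 that just missed the threshold (adjusted p = 0.0564, limma). That value comes from the brightest of its 5 probe sets. All 5 were higher in COL1A1-high nodes, by 0.24 to 1.93, so the size of the COL3A1 difference depends on the probe set. Of 16 measured collagen chains apart from COL1A1, 14 were higher (87.5%) with a median difference of 0.12, 1 passed the test, and 6 were higher and 1 lower at an unadjusted p under 0.05. COL4A1, a basement membrane chain, differed by 1.05 and COL5A2, a chain of the collagen that nucleates fibrils, by 0.62 (adjusted p = 0.231 and 0.262, limma). COL10A1, the collagen of growth plate cartilage, had the opposite sign at -0.37 (adjusted p = 0.335).

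**Figure D2:**
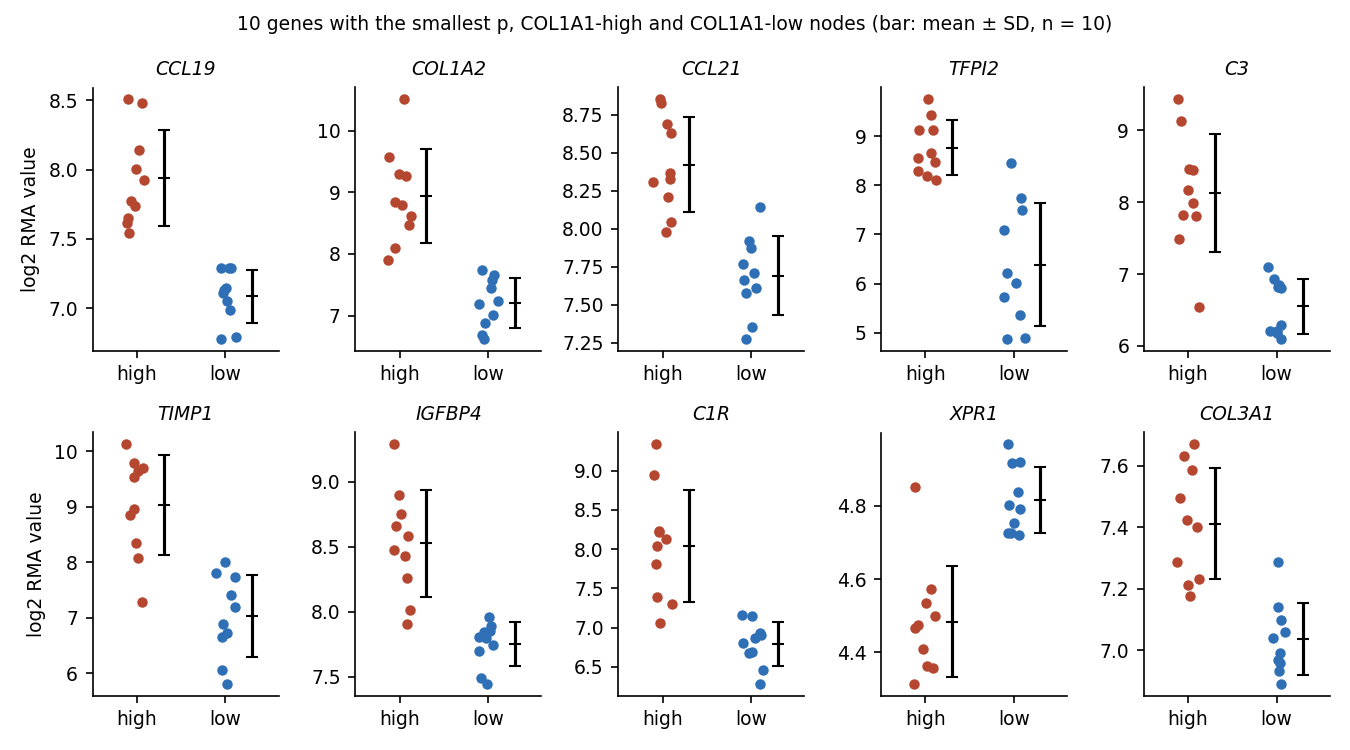
Log2 values of the 10 genes with the smallest p in the 10 COL1A1-high (left) and 10 COL1A1-low (right) nodes, 1 point per dog, with the mean ± SD beside each group and axes that do not start at 0. COL1A2 and CCL19 separate the groups fully; in C3 a single COL1A1-high node, dog 2 at 6.54, lies among the COL1A1-low nodes, and in XPR1 a single one, dog 50 at 4.85, does.

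Of the non-collagen matrix proteins, 32 of 37 measured were higher in COL1A1-high nodes (86.5%), with a median difference of 0.15. None passed the adjusted threshold (limma), while 13 were higher and 0 lower at an unadjusted p under 0.05. SPARC, a collagen-binding matricellular protein, ran from 7.50 to 10.94 with a median of 8.58 in COL1A1-high nodes, against 6.58 to 8.11 with a median of 7.48 in COL1A1-low nodes (difference 1.26 ± 0.30 SE, adjusted p = 0.174). FN1, fibronectin, ran from 7.55 to 10.99 with a median of 8.56, against 6.64 to 9.31 with a median of 7.86 in COL1A1-low nodes (difference 1.19 ± 0.37, adjusted p = 0.262). The other 3 FN1 probe sets differed by 0.18 to 0.33, and the other SPARC probe set by 0.45. In both genes the groups overlapped and dog 19 was highest. In the small leucine-rich proteoglycans, which space collagen fibrils, dog 19 stood even further apart. DCN (decorin) had a median of 6.58 in COL1A1-high and 5.86 in COL1A1-low nodes. Dog 19 stood at 9.82 and the other COL1A1-high nodes at 6.11 to 7.01, against 5.57 to 6.17 in COL1A1-low nodes. LUM (lumican) had a median of 5.16 in COL1A1-high and 4.58 in COL1A1-low nodes. Here dog 19 stood at 7.55 and the other COL1A1-high nodes at 4.84 to 5.66, against 4.47 to 4.95 in COL1A1-low nodes. Even without dog 19, most COL1A1-high nodes lay above every COL1A1-low node in both genes. The adjusted p-values of DCN and LUM were 0.264 and 0.262 (limma), and each passed in 3 of the 31 alternative settings that kept it. POSTN, periostin, differed by 0.23 (adjusted p = 0.391), and its median was 5.08 in COL1A1-high against 4.88 in COL1A1-low nodes.

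The largest difference of the called genes belonged to a protease inhibitor. TFPI2, a Kunitz-type inhibitor of serine proteases, ran from 8.12 to 9.75 with a median of 8.60 in COL1A1-high nodes, against 4.88 to 8.45 with a median of 6.11 in COL1A1-low nodes. It rose 5.22-fold (log2 difference 2.39 ± 0.41 SE, adjusted p = 0.0287, limma), while its other probe set differed by 0.94. The COL1A1-high nodes were close together, whereas the COL1A1-low nodes were scattered and 1 of them, dog 7 at 8.45, fell inside the range of the other group. TIMP1, an inhibitor of the matrix metalloproteinases that cut collagen, ran from 7.29 to 10.12 with a median of 9.24, against 5.81 to 8.00 with a median of 7.04 in COL1A1-low nodes. It rose 4.01-fold (2.00 ± 0.35 SE, adjusted p = 0.0287), and dog 44 was its lowest COL1A1-high node. Of 18 measured proteases and inhibitors, 14 were higher (median 0.03), with TIMP2 at 0.50 and MMP9, a gelatinase, at 0.55 (adjusted p = 0.212 and 0.284). Among 18 enzymes that modify and cross-link collagen, 13 were higher (median 0.09) and none was called, and 3 were higher and 0 lower at an unadjusted p under 0.05. PCOLCE, which speeds the trimming of procollagen, differed by 0.43 (adjusted p = 0.267, limma), and the cross-linking enzyme gene LOX by -0.05.

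Genes used as fibroblast markers were higher in 21 of 23 cases (91.3%, median 0.22), 2 of them called (IGFBP4 and C1R) and 10 with an unadjusted p under 0.05. IGFBP4, which binds insulin-like growth factors, ran from 7.91 to 9.29 with a median of 8.53 in COL1A1-high nodes, against 7.45 to 7.96 with a median of 7.80 in COL1A1-low nodes. It rose 1.71-fold (0.77 ± 0.14 SE, adjusted p = 0.0291, limma), and the groups overlapped only at 7.91 in dog 2 and 7.96 in dog 56. This is the brightest of 3 IGFBP4 probe sets: the others differed by 0.07 and 0.08, and the mean of all 3 by 0.31, which did not pass (adjusted p = 0.153, limma). Among receptors and surface markers of fibroblasts, PDGFRA, a platelet-derived growth factor receptor, differed by 0.22 and CDH11, a cadherin of mesenchymal cells, by 0.81 (adjusted p = 0.284 and 0.336). Fibroblast markers and collagens were thus higher together in the COL1A1-high nodes, although most of them missed the adjusted threshold singly, so the groups are called here by their COL1A1 level.

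Complement genes were among those that rose, but C1R and C1S are also counted in the fibroblast list above. C3, the protein on which all complement pathways meet, ran from 6.54 to 9.43 with a median of 8.08 in COL1A1-high nodes, against 6.10 to 7.10 with a median of 6.55 in COL1A1-low nodes. It rose 2.99-fold (1.58 ± 0.27 SE, adjusted p = 0.0287, limma). The size depended on the probe set: of 6, 1 other differed by 1.57 and 4 by 0.02 to 0.36, and their mean by 0.65 (adjusted p = 0.0405). C1R, a protease of the classical pathway that fibroblasts secrete, ran from 7.05 to 9.33 with a median of 8.08, against 6.28 to 7.16 with a median of 6.83 in COL1A1-low nodes, and rose 2.38-fold (1.25 ± 0.23 SE, adjusted p = 0.0440). The other C1R probe set differed by 0.49. The C3 call held in 15 and the C1R call in 11 of 32 alternative settings, while those of COL1A2 and CCL19 held in 31, those of CCL21, TFPI2 and TIMP1 in 18 each, that of IGFBP4 in 12 and that of XPR1 in 6 of the 31 settings that kept it. C1S, the partner protease of C1R, ran from 9.26 to 11.52, against 8.31 to 9.24 in COL1A1-low nodes, with no overlap (difference 1.28, adjusted p = 0.0564). Dogs 19 and 22 had the highest C3 and C1R values. C1S was named after its values were seen.

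Chemokines of the T-cell zone rose as well. CCL19 and CCL21 are the ligands of the receptor CCR7 and are made by fibroblastic reticular cells. CCL19 ran from 7.54 to 8.51 with a median of 7.85 in COL1A1-high nodes, against 6.78 to 7.29 with a median of 7.12 in COL1A1-low nodes, and rose 1.80-fold (0.85 ± 0.12 SE, adjusted p = 0.0110, limma). CCL21 ran from 7.98 to 8.85 with a median of 8.35, against 7.28 to 8.15 with a median of 7.69 in COL1A1-low nodes. It rose 1.66-fold (0.73 ± 0.12 SE, adjusted p = 0.0287), and only dog 37 of the COL1A1-low nodes reached the range of the other group. CXCL12, the stromal ligand of CXCR4, had medians of 8.85 in COL1A1-high and 7.85 in COL1A1-low nodes and differed by 1.03 ± 0.32 (adjusted p = 0.264). The other CXCL12 probe set differed by 0.39. Of 15 measured genes of reticular and follicular stroma, 13 were higher (86.7%) with a median of 0.45, 2 were called, and 7 were higher and 0 lower at an unadjusted p under 0.05. IL33, an alarmin kept in the nuclei of stromal cells, differed by 1.30 and TNFSF13B, the B-cell survival factor BAFF, by 0.71 (adjusted p = 0.174 and 0.262). IL7, a survival factor of T cells, had the opposite sign at -0.35.

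In the transforming growth factor beta pathway, whose signal raises collagen transcription, 14 of 22 measured genes were higher (63.6%, median 0.04), close to the 60.1% of all genes. None was called (limma), and 3 were higher and 1 lower at an unadjusted p under 0.05. The matricellular targets CCN1 and CCN2 differed by 1.58 and 1.27 (adjusted p = 0.267 and 0.235), whereas SMAD4, the shared signal transducer, differed by -0.44 (adjusted p = 0.262). Endothelial genes were higher in 22 of 28 cases (78.6%, median 0.11), none called and 9 with an unadjusted p under 0.05. VWF, the von Willebrand factor of blood vessels, ran from 6.45 to 8.35 with a median of 7.10 in COL1A1-high nodes, against 6.34 to 7.28 with a median of 6.58 in COL1A1-low nodes (0.50 ± 0.17 SE, adjusted p = 0.267). PECAM1, the junction protein CD31, had groups that overlapped almost wholly, at 7.16 to 11.01 against 6.24 to 11.08 in COL1A1-low nodes (0.65 ± 0.59, adjusted p = 0.615). Of 20 smooth muscle and pericyte genes, 17 were higher (median 0.09). ACTA2, smooth muscle actin, ran from 5.81 to 9.62 with a median of 7.63, against 5.84 to 8.45 with a median of 6.27 in COL1A1-low nodes, a difference of 1.09 ± 0.39 (adjusted p = 0.284).

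**Figure D3:**
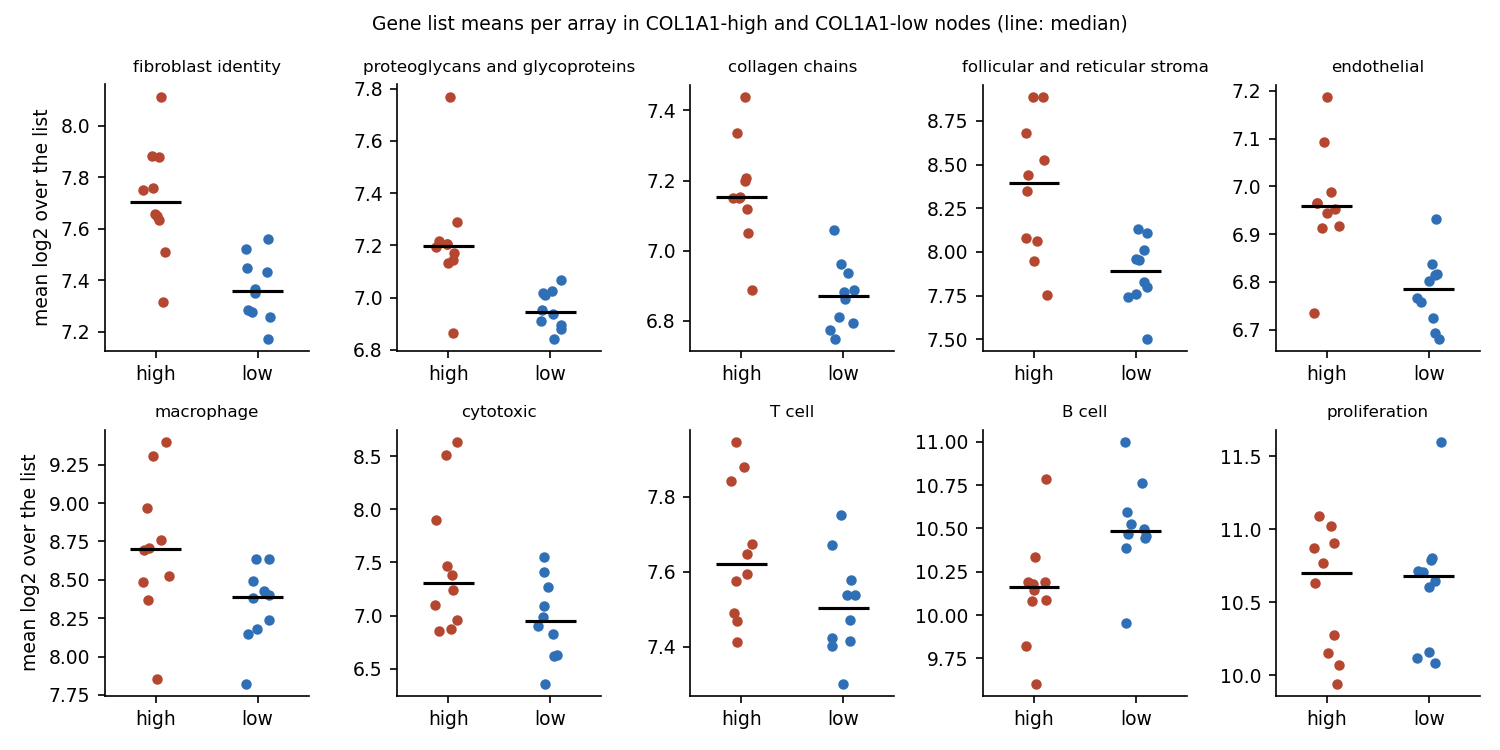
Mean log2 value over each of 10 gene lists in the 10 COL1A1-high (left) and 10 COL1A1-low (right) nodes, 1 point per dog with the median as a line and axes that do not start at 0. The fibroblast, matrix and collagen lists are higher in most COL1A1-high nodes, the B-cell list is lower in most, and the proliferation list has a median of 10.70 in COL1A1-high and 10.68 in COL1A1-low nodes.

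The immune lists that were higher in COL1A1-high nodes were led by macrophages and cytotoxic lymphocytes. Of 24 macrophage genes, 21 were higher (87.5%, median 0.32), none was called (limma), and 9 were higher and 0 lower at an unadjusted p under 0.05. Their mean per node ran from 7.85 to 9.40 with a median of 8.70 in COL1A1-high nodes, against 7.82 to 8.64 with a median of 8.39 in COL1A1-low nodes. ITGAX, the integrin CD11c, differed by 0.78, C1QC, a chain of complement C1q made by macrophages, by 0.96 and CD14, the endotoxin co-receptor, by 0.41 (adjusted p = 0.235, 0.267 and 0.298). CD163, a scavenger receptor, differed by -0.02 on its brightest probe set, but 3 of its 4 probe sets were higher, by up to 0.97. Of 14 cytotoxic genes 12 were higher (85.7%) with a median of 0.49, none called and 5 with an unadjusted p under 0.05. CCL5, a T-cell chemokine, differed by 1.36 and GZMA, granzyme A, by 0.75 (adjusted p = 0.282 and 0.323). The cytotoxic mean was highest in dog 2 at 8.64 and dog 22 at 8.51, and 3 COL1A1-high nodes lay above every COL1A1-low node. Among general T-cell genes 20 of 24 were higher (83.3%, median 0.17). CD3E, a chain of the T-cell receptor complex, differed by 0.12 ± 0.08 (adjusted p = 0.486), and CD247, the zeta chain of that complex, by -0.76 (adjusted p = 0.285). Granulocyte genes were higher in 11 of 13 cases (median 0.14) and mast cell genes in 6 of 8 (median 0.10).

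Markers of the B cells, from which the tumour arises, went the other way. Of 18 measured B-cell genes 3 were higher and 15 were not (median -0.27), none was called (limma), and 4 were lower and 0 higher at an unadjusted p under 0.05. Their mean per node ran from 9.60 to 10.79 with a median of 10.16 in COL1A1-high nodes, against 9.95 to 11.00 with a median of 10.48 in COL1A1-low nodes. EBF1, a B-lineage transcription factor, differed by -0.70 and CD22, a B-cell lectin, by -1.12 (adjusted p = 0.235 and 0.284). MS4A1, the antibody target CD20, had a median of 12.34 in COL1A1-high and 12.88 in COL1A1-low nodes and differed by -1.18 ± 0.55 (adjusted p = 0.357). Dog 22 pulled that difference, at 6.96 where the other COL1A1-high nodes lay at 11.72 or above, while CD79A, part of the B-cell receptor, stood at 8.61 in the same node against a group median of 8.42. CD79A itself differed by -0.33 ± 0.41 (adjusted p = 0.727).

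Apart from plasma cell genes, lists for programmes of the tumour cells had medians close to 0. Their shares of higher genes lay below the 60.1% of all genes, and were lowest for proliferation and germinal centre genes. Germinal centre genes were higher in 5 of 14 cases (35.7%, median -0.03), and the transcriptional repressor BCL6, a member of this list, differed by 0.05 ± 0.46 (adjusted p = 0.968, limma). Genes of the activated B-cell-like type were higher in 8 of 15 cases (median 0.01), with BATF, an AP-1 family factor, at 0.73 (adjusted p = 0.250). Proliferation genes were higher in 11 of 31 cases (35.5%, median -0.09) and MYC targets in 11 of 23 (47.8%). Plasma cell genes were higher in 12 of 13 cases (92.3%, median 0.24), none called and 3 with an unadjusted p under 0.05, among them CD38 at 0.69. Of 14 genes of MHC class II, which presents peptides to helper T cells, 7 were higher (median 0.01), and DLA-DRA, the canine DR alpha chain, differed by -0.03 ± 0.08 (adjusted p = 0.893). Interferon-induced genes were higher in 12 of 23 cases (median 0.06, from -0.12 to 0.21 under the other settings tried), with CXCL10, a chemokine that draws activated T cells, at 2.35 (adjusted p = 0.262). Dogs 2 and 41 had interferon list means of 8.78 and 8.81, below the 9.66 to 10.96 of all COL1A1-low nodes, and the other 8 COL1A1-high nodes lay at 10.14 or above. XPR1, which exports phosphate from cells, was the only gene called lower at an adjusted p under 0.05. It ran from 4.31 to 4.85 with a median of 4.47 in COL1A1-high nodes, against 4.72 to 4.97 with a median of 4.80 in COL1A1-low nodes (difference -0.33 ± 0.06 SE, adjusted p = 0.0463, limma). XPR1 lay among the dimmest 25% of genes.

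Markers of tissues that a biopsy could carry along were measured as well. Adipocyte genes were higher in 8 of 12 cases (66.7%, median 0.10), close to the 60.1% of all genes. Their mean ran from 5.95 to 6.80 in COL1A1-high nodes, against 6.05 to 6.27 in COL1A1-low nodes, with 5 COL1A1-high nodes above every COL1A1-low node. FABP4, the fatty acid carrier of fat cells and capillaries, differed by 0.94 (adjusted p = 0.383, limma). Skeletal muscle genes were higher in 9 of 13 cases (69.2%, median 0.04), epithelial genes in 7 of 9 (77.8%, median 0.11) and red cell and platelet genes in 8 of 10 (80%, median 0.12). Their part in the collagen difference was not tested.

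The 38 arrays that the ranking had put in neither group gave a separate look at the same genes: 12 middle DLBCL nodes, 7 MZL nodes and 19 aspirates. COL1A1 ran from 6.47 to 7.70 in the middle nodes, from 4.30 to 10.28 in MZL nodes and from 5.39 to 10.66 in aspirates. A slope of each gene on COL1A1 was fitted with the 3 kinds of sample as a factor, in log2 units per log2 unit of COL1A1. At an adjusted p under 0.05, 67 genes had a positive slope (0.443% of genes tested) and 0 a negative one (limma, 0%). At an unadjusted p under 0.05 the counts were 604 (4%) and 607 (4.02%), and 53.6% of all slopes were positive. Of the 9 genes called between the ranked nodes, 8 were among the 67. COL1A2 had a slope of 0.57 ± 0.065 (SE, adjusted p = 1.17e-06), TIMP1 of 0.55 ± 0.077 and C3 of 0.62 ± 0.098. The slopes of CCL19 and CCL21 were 0.47 and 0.35 (adjusted p = 0.000814 and 0.0396), while XPR1 had a slope of -0.01 ± 0.027 (adjusted p = 0.966). All 67 genes were also higher in COL1A1-high than in COL1A1-low nodes, 58 of them at an unadjusted p under 0.05. Over all genes tested, 60.1% were higher by any amount and 7.7% were higher at an unadjusted p under 0.05. With aspirates alone 16 genes had a positive and 0 a negative slope, and with the 19 other nodes alone 2 and 1. Of the 8 shared genes, only COL1A2 passed in the 19 nodes alone (slope 0.56, adjusted p = 0.00335, limma). The rest had positive slopes there, with adjusted p-values of 0.217 or more (limma). In aspirates alone COL1A2, TIMP1 and IGFBP4 passed (adjusted p = 0.0168, 0.0168 and 0.0264, limma), while CCL19, CCL21, C3, C1R and TFPI2 did not.

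**Figure D4:**
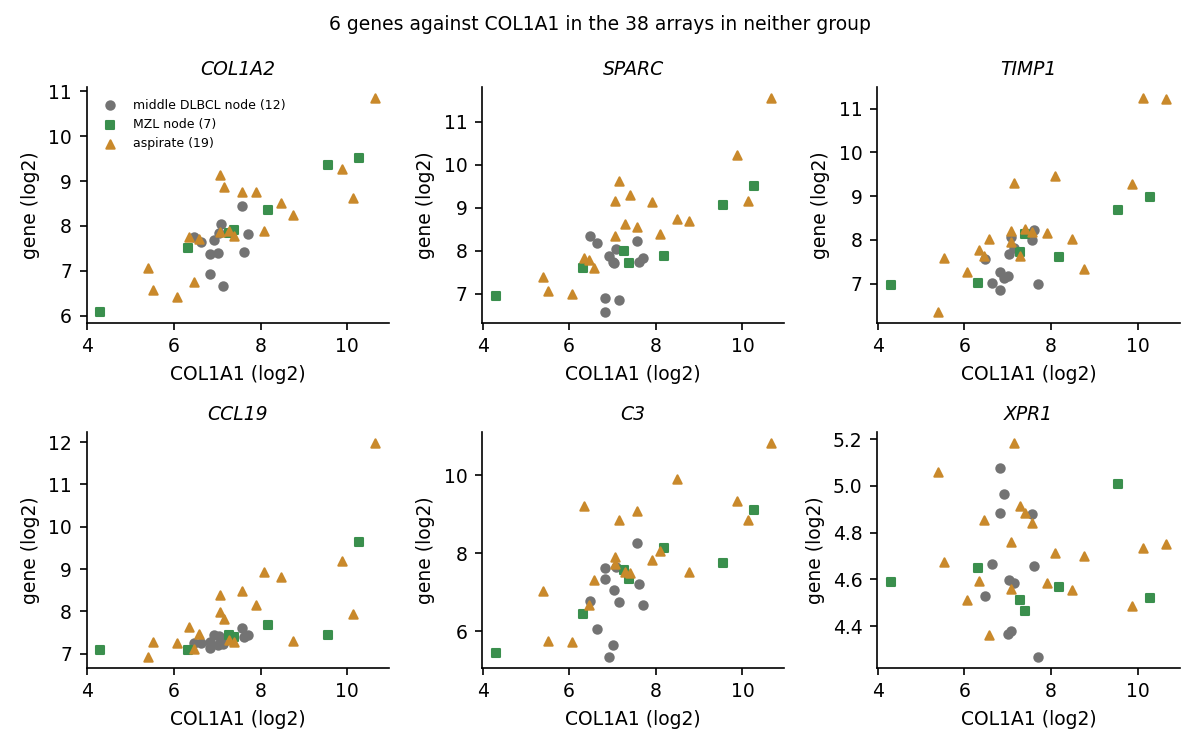
Log2 value of 6 genes against log2 COL1A1 in the 38 arrays in neither group, with the 12 middle DLBCL nodes, 7 MZL nodes and 19 aspirates marked by shape and colour. COL1A2, SPARC, TIMP1, CCL19 and C3 have positive slopes on COL1A1, and XPR1 is scattered with a slope of -0.01. In CCL19, dog 33 (aspirate) at 11.98 and dog 43 (MZL) at 9.64 are highest. Dog 46 (aspirate, COL1A1 10.13) stands at 7.93 and dog 58 (MZL, COL1A1 9.55) at 7.43.

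Several matrix genes that missed the threshold between the ranked nodes passed it in these 38 arrays. THBS1, thrombospondin 1, had the smallest p of all slopes (0.39, adjusted p = 2.44e-09, limma), beside a difference of 0.73 between COL1A1-high and COL1A1-low nodes. LAMA4, a laminin chain of vessel basement membranes, had a slope of 0.48 (adjusted p = 1.98e-05), SPARC of 0.54 (adjusted p = 1.98e-05) and COL4A1 of 0.51 (adjusted p = 8.41e-05). FN1 had a slope of 0.62 (adjusted p = 0.00144), VWF of 0.24 (adjusted p = 0.0108) and ACTA2 of 0.38 (adjusted p = 0.0348). The VWF slope was 0.37 in aspirates alone (adjusted p = 0.0252) and 0.03 in the 19 nodes alone (adjusted p = 1.00). By list, positive slopes were called for 7 of 37 matrix glycoproteins, 5 of 15 reticular and follicular genes, 4 of 16 collagen chains, 4 of 23 fibroblast genes and 3 of 28 endothelial genes. The share over all genes was 0.443%. Of the macrophage list 1 of 24 genes was called, STAB1, a scavenger receptor shared with sinus endothelium, with a median slope of 0.08 over the list. None of the 24 T-cell, 14 cytotoxic and 18 B-cell genes was called (limma), with median slopes of 0.02, 0.05 and -0.07. At an unadjusted p under 0.05 these lists had 1 positive and 1 negative, 0 and 0, and 0 and 1 slopes. Over all genes the shares were 4% positive and 4.02% negative. TYROBP, an adaptor of myeloid receptors named after its values were seen, differed by 1.36 between the ranked nodes and had a slope of 0.11 (adjusted p = 0.133 and 0.834). Whether the slopes of these lists differ between the ranked nodes and the other arrays was not tested.

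IGHV status asks whether the variable genes of a tumour are still mutating. Among COL1A1-high nodes 6 tumours were static and 4 ongoing, against 6 static, 3 ongoing and 1 ND among COL1A1-low nodes. The odds ratio of static status was 0.761 (95% interval 0.0754 to 6.93, Fisher's exact p = 1, two-sided), an interval wide enough to hold large differences either way. Over all DLBCL nodes with a known status, COL1A1 was 7.09 ± 1.48 in 18 static and 7.21 ± 1.20 in 12 ongoing tumours (SD, difference -0.12, permutation p = 0.819).

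Outcome was known for 9 COL1A1-high and 10 COL1A1-low dogs, in a time unit that the labels do not state. PFS ran from 24 to 476 with 7 events among COL1A1-high dogs, against 58 to 386 with 10 events among COL1A1-low dogs, and the Kaplan-Meier median was 146 in COL1A1-high and 190 in COL1A1-low dogs. The hazard ratio of COL1A1-high over COL1A1-low was 1.20 (95% interval 0.446 to 3.23, exact permutation p = 0.739 of the log-rank statistic over 92378 assignments, two-sided). OS ran from 71 to 476 with 7 events, against 90 to 548 with 9 events, with medians of 182 in COL1A1-high and 244.5 in COL1A1-low dogs. Its hazard ratio was 1.74 (95% interval 0.598 to 5.04, exact permutation p = 0.355). Neither difference passed the permutation test at a p under 0.05, and both intervals are wide and include 1. Without dog 44, a COL1A1-high dog censored at 476, the hazard ratios were 2.79 for PFS (exact permutation p = 0.136) and 2.66 for OS (exact permutation p = 0.129). With COL1A1 as a continuous measure over 30 DLBCL node dogs the hazard ratio per log2 unit was 0.994 for PFS (95% interval 0.716 to 1.38, permutation p = 0.973) and 1.02 for OS (0.724 to 1.43, p = 0.923).

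**Figure D5:**
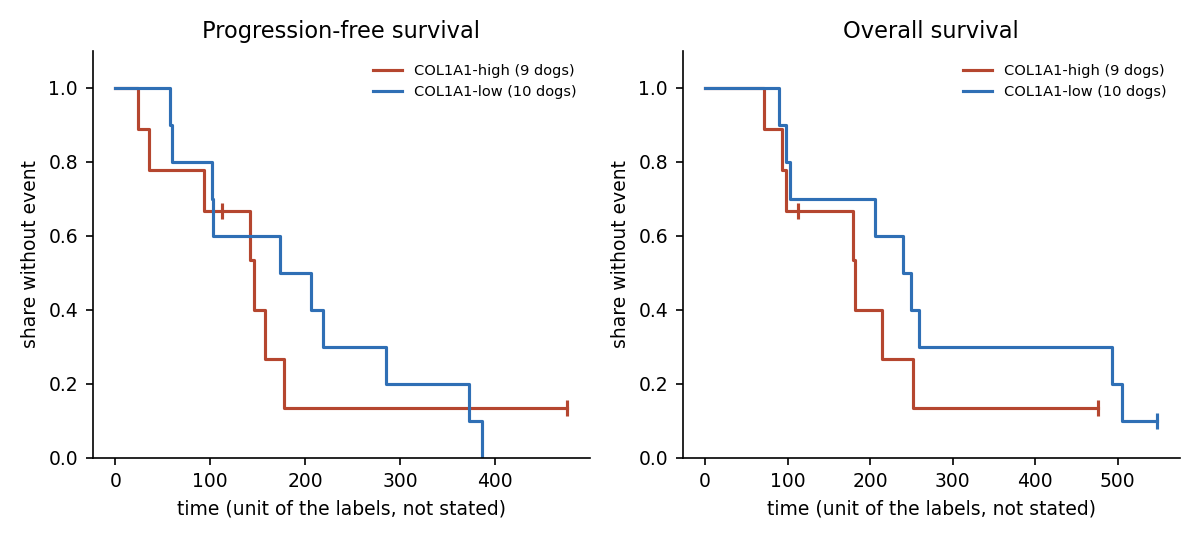
Kaplan-Meier curves of progression-free survival (left) and overall survival (right) for 9 COL1A1-high and 10 COL1A1-low dogs, with the share of dogs without an event against time in the labels' unstated unit and ticks at censored dogs. The curves cross in progression-free survival, and the overall survival median is 182 in COL1A1-high and 244.5 in COL1A1-low dogs.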

How the data were processed

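Per the labels' protocols, Trizol-extracted RNA was amplified, biotinylated and hybridised to Affymetrix canine arrays. The deposited log2 values cover 43035 probe sets and 58 dogs and come from RMA in Affymetrix Expression Console, per the submitters' processing notes. RMA corrects background and normalizes between arrays, which can compress differences of dim probe sets. Versions and the array's genome build are not given in the sources used here. Each gene was represented by its brightest probe set on average across the 58 arrays, among the 29254 probe sets with 1 symbol, which gave 15115 genes without a filter on dim genes. Each sample is a different dog, so the dog is the unit of every test, and the number of arrays limits the precision.

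COL1A1-high and COL1A1-low nodes were compared with limma 3.58.1 in R 4.3.3 (default eBayes, two-sided, Benjamini-Hochberg over all genes except COL1A1, threshold 0.05), and slopes on COL1A1 were fitted likewise. Survival used the log-rank statistic over every assignment, Cox hazard ratios from survival 3.8.3, and an indicator of 1 read as an event; continuous measures used 100000 permutations, whose smallest p is 1e-05. The genes named were the 10 with the smallest p, up to 2 called genes of each of 26 lists and preset genes (MKI67 had no value here); others followed from the lists or the order of p after values were seen. The lists held 537 symbols, 472 of them measured. Members and lists were chosen with earlier results of these data known. On simulated data for the COL1A1-high and COL1A1-low comparison over 15114 genes, limma recovered 85% of changes of 1 and 99% of changes of 2 on the log2 scale. There 100 genes were changed by each size and all genes varied independently. These shares do not give the recovery in the real comparison. In it 9 genes were called, and a difference of 1.26 in SPARC missed the threshold (adjusted p = 0.174, limma). Alternatives covered probe set choice, ranking, test, covariates, centring, dim genes and leaving out each dog.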

Additional observations from a re-analysis of the deposited data

Results flagged for a closer look

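In 17 of 112 sets of values within a group, 1 dog lay farther from its nearest neighbour than Dixon's 95% limit allows, where chance flags about 1 in 20 such sets. The most frequent was dog 19, the COL1A1-high node with the highest COL1A1 (10.56, next 8.99). It was also apart from the other COL1A1-high nodes in DCN at 9.82, LUM at 7.55, SPARC at 10.94, POSTN at 6.08, VWF at 8.35 and the mean of the matrix glycoprotein list at 7.77. These sets are not independent, since they share that node. The 1 in 20 rate does not apply to COL1A1, because the group was taken from 1 end of its ranking. Nor does it apply to the PFS and OS times, some of which are censored. Among COL1A1-high nodes, dog 22 was low in MS4A1 at 6.96, dog 50 was high in XPR1 at 4.85, and dog 41 was low in DLA-DRA at 13.50. Dog 41 also had the 3' minus 5' value of 2.65. The PFS and OS time of dog 44, both 476 and censored, exceeded the next longest COL1A1-high times of 178 and 252. Among COL1A1-low nodes, dog 7 was high in ACTA2 at 8.45, dog 14 low in CD79A at 6.71, dog 56 high in the mast cell mean at 6.83 and dog 10 high in the proliferation mean at 11.60.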

How the results depend on the processing

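The counts of 8 genes higher and 1 lower in COL1A1-high nodes moved with the ranking, the test and single dogs. Ranking by the mean of all COL1A1 probe sets gave 29 and 13, and the slope over all 32 DLBCL nodes gave 69 and 10; both kept all 9 called genes. Comparing 8 nodes with 8 gave 6 higher and 2 lower and kept 3 of the 9. With the rank-sum test 0 genes were called in either direction (1797 at an unadjusted p under 0.05, smallest adjusted p 0.0545). With the 3' minus 5' difference as a covariate 2 were higher. None was lower in that setting, with IGHV status as a covariate, with arrays centred on their median, without the dimmest genes (lowest 25% by mean, which removes XPR1 itself), or without dogs 41 and 19, an alternative chosen after seeing the data that left 6 higher and kept 3 of the 9 genes. The cause of these changes was not tested. Leaving out each dog in turn gave 2 to 73 higher and 0 to 48 lower genes (73 and 48 without dog 50, 5 higher without dog 48, 4 without dog 53, 7 or 26, 3 without dog 22, 44 or 14, and 2 without dog 18, 55, 10, 21, 6 or 8), an IGHV odds ratio of 0.520 to 1, a PFS hazard ratio of 1.05 to 2.79 and an OS hazard ratio of 1.47 to 2.66. The odds ratio turned to 1.81 under the ranking by mean COL1A1 (Fisher's exact p = 0.650). The PFS hazard ratio turned to 0.986 for 8 against 8 nodes (exact permutation p = 0.983) and to 0.994 with continuous COL1A1, and was 1.84 stratified by IGHV status (exact permutation p = 0.353). In the 38 other arrays the 67 positive and 0 negative slopes became 16 and 0 in aspirates alone and 2 and 1 in nodes alone, and 2 negative slopes were called with the mean of all probe sets. Uncalled genes near 0 changed sign. The CD163 difference became 0.39 with the mean of probe sets, 0.028 under the ranking by mean COL1A1, 0.060 for 8 against 8, 0.043 over all 32 nodes, 0.021 without dog 48 and 0.00887 without dog 14. The DLA-DRA difference became 0.029 with the 3' minus 5' covariate, 0.019 without dog 41 and 0.026 without dogs 41 and 19. The BCL6 difference became -0.24, -0.10, -0.049, -0.12 and -0.0832 without dog 2, 22, 19, 10 and 37. Among slopes, XPR1 became 0.013 in nodes alone and 0.0015 without arrays over 1 in 3' minus 5', CD163 became -0.0097 there, CD3E became -0.0064 in aspirates, and PECAM1 became -0.053 and CD79A -0.094 in nodes alone. The median differences of 20 of the 26 lists kept their sign in all 32 settings, and those of the activated B-cell-like, interferon-induced, MHC class II, MYC target, proliferation and transforming growth factor beta lists, all close to 0, changed sign in 2 to 11 of them. No paired analysis was possible because each dog gave 1 sample. With 10 arrays a group, only differences large against the spread between dogs can pass, and dim probe sets with values close to background carry little information on change.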
